A study of Kluyveromyces lactis with 12 samples.

Results

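In the yeast Kluyveromyces lactis, 129 of the 5081 genes on the array were raised by tert-butyl hydroperoxide (t-BOOH) while arsenite left their level near that of untreated cells. The members were chosen by wild-type values. Levels were log2 processed signals set against the median gene of the same array and strain, averaged over 4 arrays. A member had a t-BOOH change of at least 1.5 on the log2 scale and an arsenite change between -0.5 and 0.5, both against untreated cells. Leaving out the 3 outermost genes of each chromosome end removed none of them. These wild-type values chose the genes, so they are given below as a description with no test, and so are the strain ratios that contain them. Tests were made only in the deletion strain, whose RNA the choice did not use. Its channel shares every array with the wild type. What group and dye left unexplained correlated at 0.589 between the 2 channels, so these tests are not wholly independent of the choice. Of all genes, 291 reached the t-BOOH threshold, and 41 were raised by at least 1.5 under both stresses while 16 were raised by arsenite alone.

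The data are 12 dual-colour arrays, each carrying RNA of the wild type, Klwt, in one dye and of the yap8 deletion strain, Klyap8∆, in the other, both from the same condition. Cells growing exponentially in YPD, a rich medium, were untreated, or were stressed for 30 min with sodium arsenite or with t-BOOH at 0.25 mM. Each condition had 4 biological experiments. For arsenite the labels conflict, with 25 mM in one field and 0.1 mM in another. The labels give no further genotype and no number of deletion clones, the dyes were exchanged on 2 of the 4 arrays of each condition, and slide 1 held the untreated and arsenite arrays while slide 2 held those of t-BOOH. Slide and t-BOOH therefore cannot be told apart in any change against another condition, while the strain ratios are within arrays.

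t-BOOH is an organic hydroperoxide that oxidises thiols and lipids, and arsenite binds thiols. In yeasts both stresses are known to act through the Yap family of transcription factors, of which Yap8 (Arr1) is known in Saccharomyces cerevisiae for arsenic resistance and Yap1 for peroxide defence. Peroxides are removed by catalases, peroxidases, glutaredoxins and the glutathione that supplies them. Amino acid synthesis genes of S. cerevisiae are raised together by the activator Gcn4 when amino acids are short or the kinase Gcn2 is active, which is called general amino acid control. Most gene symbols are those of S. cerevisiae counterparts, so the roles given here come from that yeast. A symbol was available for 89 of the 129 members.

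Median processed signals lay between 980 and 1241 intensity units per array and strain, at least 97.4% of genes were well above background, and no spot was saturated. ARR1 (YAP8), the deleted gene, had log2 ratios of deletion over wild type of -2.24 to -0.62 over the 12 arrays, below 0 on each. Whether its probe lies inside the deleted part is not stated in these sources. Of the 12 arrays, 3 stood apart. Untreated replicate 4 and t-BOOH replicate 1 correlated over genes with the other arrays of their condition at 0.940 and 0.944 (wild-type levels), where the other untreated and t-BOOH arrays had 0.962 to 0.976. On t-BOOH replicate 3 the strain ratios correlated with those of the other t-BOOH arrays at 0.05, where the others had 0.41 to 0.52. The main counts are given with and without these arrays.

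Within the wild type the members' t-BOOH change ran from 1.502 to 5.22 with a median of 1.86, against 0.13 over all genes tested. Their arsenite change had a median of 0.00, against -0.07. The members leaned towards weaker genes before treatment, with a wide spread. Their untreated level had quartiles of -2.22 and 1.38 with a median of -0.51, against -1.36, 1.22 and 0.01 over all genes. Just inside the t-BOOH threshold lay MRX19 (1.502), KLLA0D07964g (1.502) and TEC1 (1.51), and just outside it MRX7 (1.496), PTA1 (1.49) and APE4 (1.49). At the upper arsenite edge CMR2, GLY1 and KLLA0F16709g (0.49 each) were in, and KLLA0A11792g (0.503), KLLA0A10329g (0.53) and KLLA0C09416g (0.55) were out. At the lower edge KLLA0B10219g (-0.49), YFT2 (-0.46) and KLLA0E22089g (-0.45) were in, and BOS1 (-0.501), KLLA0F15037g (-0.52) and KLLA0F02816g (-0.55) were out. The set depends on single arrays, since 71 of the 129 members met the rule whichever array was left out. Leaving out untreated replicate 4 gave 185 genes, 105 of them members. Of the members described below, KLLA0C11121g, KLLA0F08745g, ERG2, TRP1, TRP4, ASN1, OAZ1, MMT2, SAE3, ATG4, ESBP6 and KLLA0D06325g then missed the rule. Leaving out t-BOOH replicate 1 gave 116 genes, 102 of them members, and GRX1, GSH1, KRE9, TRP5, SPR6, FRE8, ATG4, ESBP6, PRO2, THR4 and ARG2 then missed it.

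**Figure D1:**
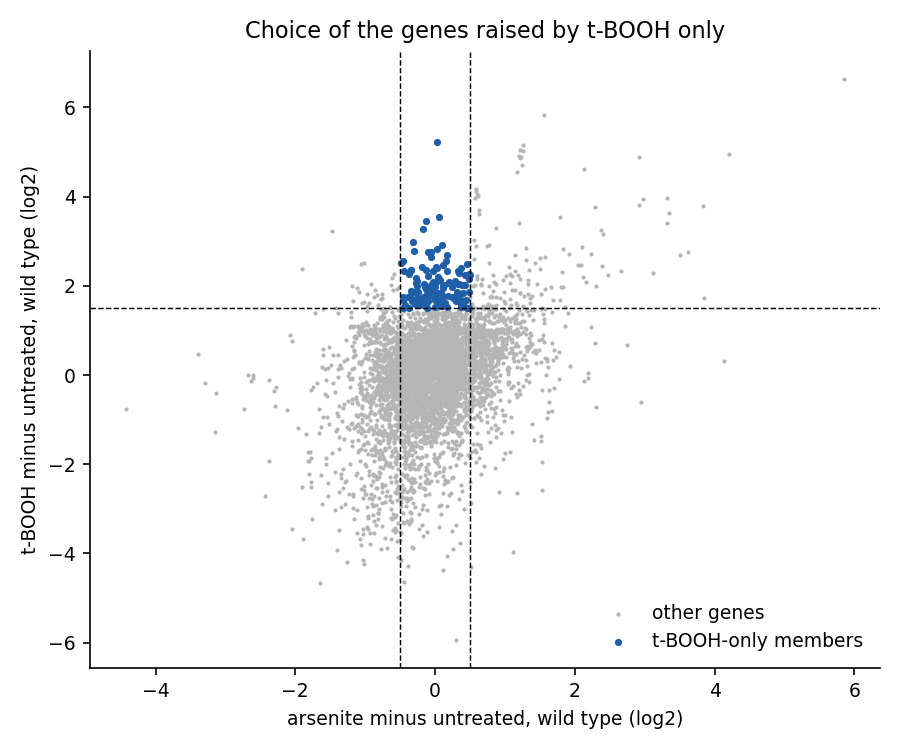
Wild-type change under t-BOOH (vertical axis) against the change under arsenite (horizontal axis), both as log2 differences from untreated cells, for all 5081 genes. Dashed lines are the limits of the rule at 1.5 and at -0.5 and 0.5, and the 129 members fill the space above 1.5 between the vertical lines, with 1 gene at 5.22.

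The deletion strain raised nearly all of these genes under t-BOOH as well. Of the 129 members 122 rose (limma separate-channel test over all genes, adjusted p under 0.05), beside 29.9% of all 5069 genes tested, and all 129 were tested. At least 2-fold increases were called for 107 members (11.8% of all genes). None fell, where 20.9% of all genes did, and the estimated change was above 0 for all 129. Members' changes ran from 0.35 to 3.65 with a median of 1.39, against 0.15 over all genes. On 109 members every t-BOOH array of the deletion strain lay above every untreated array (22.5% of all genes). Without the 3 arrays that stood apart 124 members rose. The split over all genes depends on the centring, since 1514 rose and 1060 fell with the array median at 0, and 928 rose and 1561 fell with the 75th percentile at 0. That scaling moved the median of all genes from 0.15 to -0.14, and 115 members still rose. The members' median lay 1.24 above that of all genes. This gap could not differ between the 2 centrings, since each shifts every gene of a channel alike, so its equality says nothing about stability. In whole cultures a change of RNA per cell and a change in which cells are present cannot be told apart.

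The change was smaller in the deletion strain than in the wild type for 122 of the 129 members, as it was for 48% of all genes, with a median difference of -0.52 (-1.57 to 0.56). The wild type chose the members at their highest values, so this difference is not independent of the choice and was not tested. The deletion strain itself met both limits of the rule for 70 genes. Of these, 45 were members, which is 34.9% of the members and 64.3% of the 70.

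**Figure D2:**
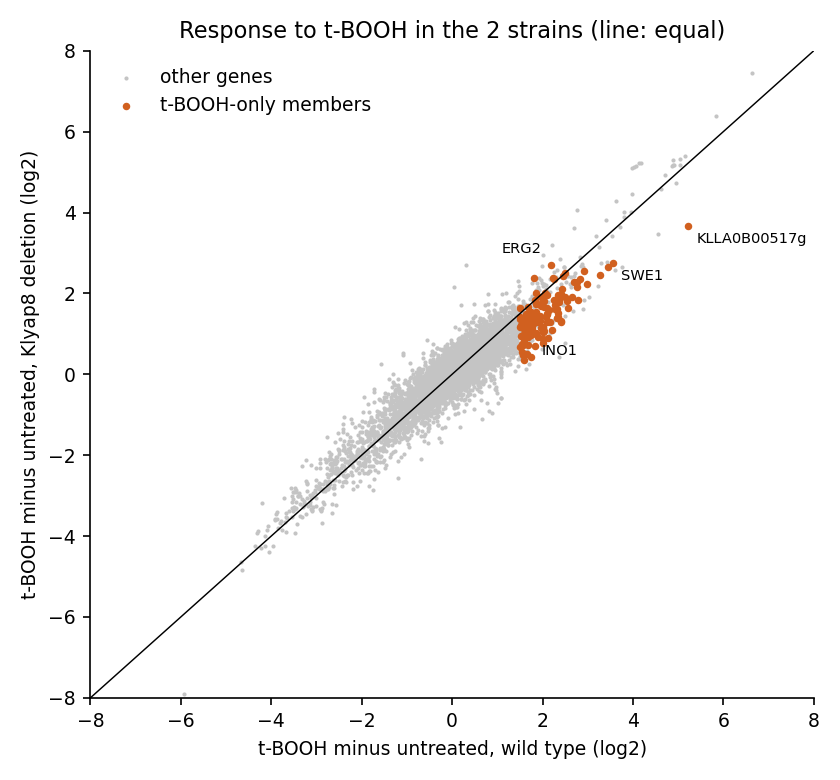
Change under t-BOOH in the Klyap8 deletion strain (vertical axis) against that in the wild type (horizontal axis), as log2 differences from untreated cells, for members and other genes. Most members lie below the line of equal change, all above 0 on the vertical axis, with INO1 (0.43) lowest among those labelled and ERG2 (2.70) above the line.

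The strongest member was KLLA0B00517g, which has no symbol. Wild-type levels were -4.68, -4.34, -4.98 and -3.17 in untreated replicates 1 to 4 and 1.28, 1.09, 0.22 and 1.14 under t-BOOH, a difference of 5.22 or 37.4-fold. In the deletion strain they were -4.53, -5.002, -4.15 and -3.34 untreated and -1.59, -0.95, 0.38 and -0.23 under t-BOOH. Neither strain's treated arrays overlapped its untreated ones, and arsenite values (-4.38 to -4.12 in the wild type) stayed among the untreated ones. The deletion strain rose by 3.65 (SE 0.49, limma adjusted p = 2.74e-06). Its next gene along chromosome B, ARO5, was also a member. ARO5 levels in the wild type were 0.44, 0.27, 0.89 and 0.60 untreated and 4.02, 3.59, 4.05 and 3.62 under t-BOOH. Deletion-strain levels were 0.71, 0.05, 0.52 and 0.09, and 2.57, 2.79, 3.11 and 2.76 under t-BOOH. All 4 treated deletion arrays lay above their untreated values and below all 4 treated wild-type arrays, and the strain rose by 2.46 (SE 0.19, limma adjusted p = 1.06e-09).

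SWE1 encodes the kinase that holds the cyclin-dependent kinase inactive and delays mitosis when budding is disturbed. Its wild-type levels were -0.94, -0.87, -0.97 and 0.02 before treatment, -0.53, -0.47, -0.87 and -0.66 with arsenite and 3.15, 2.84, 2.71 and 2.74 under t-BOOH. Those of the deletion strain were -1.25, -0.80, -0.998 and 0.30 untreated and 2.28, 1.75, 2.22 and 1.98 under t-BOOH. The treated arrays were far above all others in both strains, untreated replicate 4 was the highest untreated array in each, and the deletion strain rose by 2.75 (SE 0.26, limma adjusted p = 1.99e-08). KLLA0C11121g, a gene without a symbol, was weakly expressed before treatment. Its wild-type levels were -4.44, -4.497, -4.98 and -6.38 untreated and -1.42, -1.55, -1.97 and -1.56 under t-BOOH. The deletion strain gave -4.41, -4.58, -4.22 and -6.45 untreated and -1.95, -2.54, -2.27 and -2.25 under t-BOOH, with no overlap. It rose by 2.66 in that strain (SE 0.34, limma adjusted p = 1.26e-06), but untreated replicate 4 lay far below the others, and without that array its wild-type arsenite change was -0.57, outside the rule.

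The other 8 of the 12 strongest members had wild-type changes of 2.64 (KLLA0D02156g) to 2.98 (KLLA0E17469g) and all rose in the deletion strain. Among them were LIH1 (wild type 2.91, deletion 2.54, SE 0.27), named after a lipase homologue, and ILT1 (wild type 2.84, deletion 2.36, SE 0.20). KLLA0F11440g separated the strains more, though untreated cells differed too (mean log2 ratio of deletion over wild type -0.73). Its wild-type levels under t-BOOH were 1.78, 2.85, 2.62 and 2.89, and those of the deletion strain -0.77, 1.23, 1.49 and 1.43, all below the wild type. On replicate 1 under t-BOOH, the deletion strain lay within the untreated range of -1.56 to 0.04, and the strain's change was 1.83 (SE 0.39, limma adjusted p = 5.01e-04). KLLA0F08745g (deletion 2.15, SE 0.67) was dim, well above background on 3 of 4 untreated arrays in either strain, and it was the 1 member whose wild-type untreated and t-BOOH arrays overlapped. Without untreated replicate 4 its deletion-strain estimate was 1.28 (limma adjusted p = 0.0317) and its wild-type arsenite change -0.78, outside the rule. The remaining 128 did not overlap in the wild type (22.4% of all genes), a contrast that chose them.

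**Figure D3:**
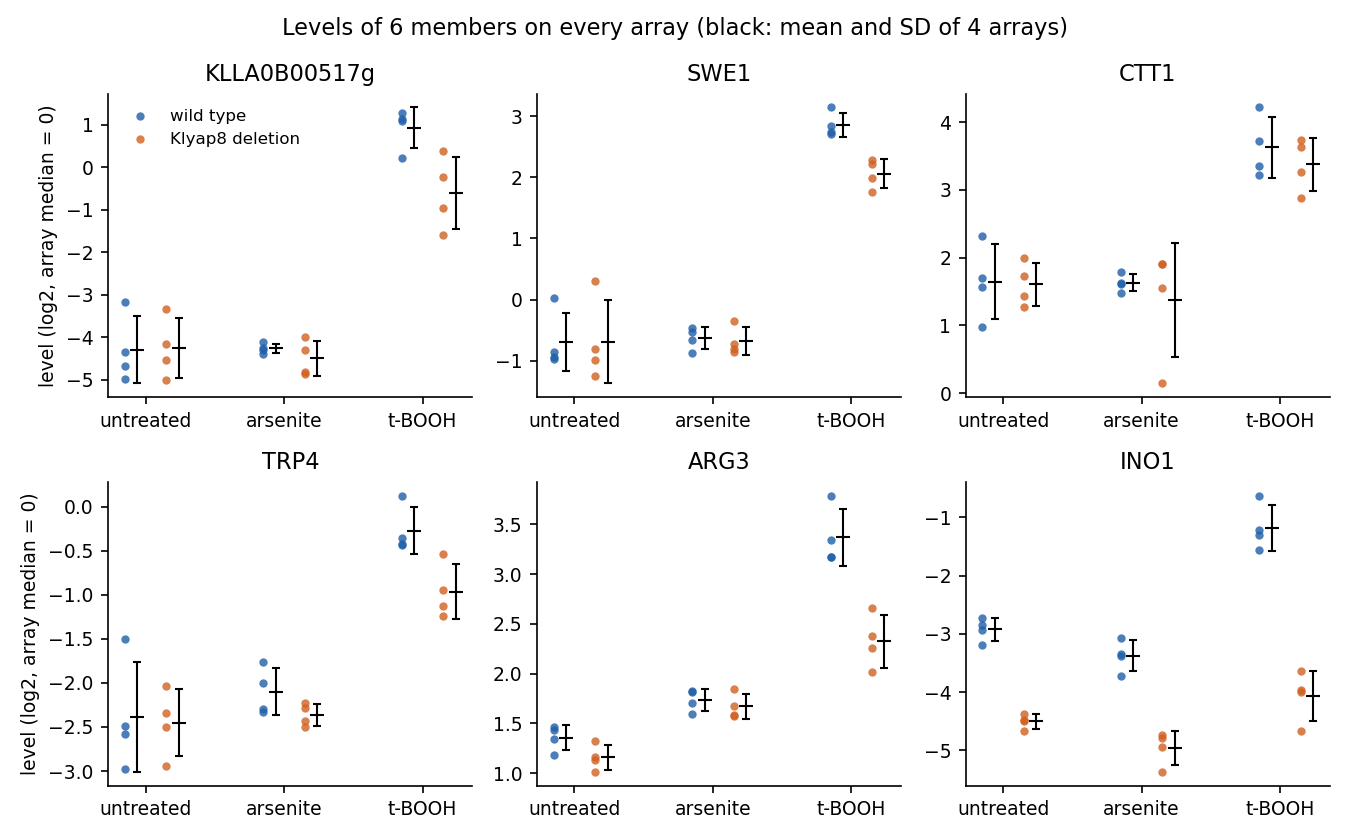
Log2 levels of 6 members (array median at 0) on each of the 4 arrays per condition, for the wild type (blue) and the Klyap8 deletion strain (orange), with mean and SD in black. KLLA0B00517g, SWE1, CTT1, TRP4 and ARG3 rise under t-BOOH in both strains, while INO1 lies lower in the deletion strain in every condition and its deletion arrays under t-BOOH overlap the untreated ones.

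Amino acid synthesis was the largest annotated group, with 13 members among 61 measured genes of the list. Over all 5069 genes tested there were 129 members, which is the base for this and the lists below. Under t-BOOH 31 of the 61 rose in the deletion strain and 5 fell (limma, adjusted over all genes), beside 29.9% and 20.9% of all genes. The list's median change was 0.76 in the wild type and 0.52 in the deletion strain, against 0.13 and 0.15 over all genes tested. Among the members were TRP1, TRP3, TRP4 and TRP5 of tryptophan synthesis, ARG2, ARG3, ARG7 and ARG8 of arginine synthesis, HIS5, ASN1, PRO2 and THR4. Beyond TRP1, TRP4, HIS5, ARG7, ARG3 and ARG8 these were named after their values were seen, and the split into pathways below was made after that too.

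Tryptophan synthesis was raised at every measured step. All 5 genes rose in the deletion strain (29.9% of all genes), and 4 of the 5 were members. TRP4 encodes the phosphoribosyltransferase that joins anthranilate to the sugar phosphate. Its wild-type levels were -2.49, -2.97, -2.58 and -1.502 untreated, -2.01, -2.34, -1.77 and -2.30 with arsenite and 0.12, -0.44, -0.42 and -0.36 under t-BOOH. The deletion strain gave -2.34, -2.94, -2.499 and -2.03 untreated and -1.13, -1.24, -0.53 and -0.95 under t-BOOH. Treated and untreated arrays did not overlap in either strain, every treated wild-type array exceeded every treated deletion array, and the deletion strain rose by 1.49 (SE 0.25, limma adjusted p = 4.96e-05). TRP1, the phosphoribosylanthranilate isomerase, rose by 1.58 in the deletion strain (SE 0.16, limma adjusted p = 5.24e-08) from a narrow untreated range of -0.09 to 0.13 to 1.46 to 1.81. TRP1 lies near the arsenite edge, with a wild-type arsenite change of 0.48, and TRP4 further inside at 0.28. Without untreated replicate 4 these changes were 0.54 and 0.58, both outside the rule. TRP3 and TRP5, the latter the tryptophan synthase, changed by 1.36 (SE 0.20) and 1.14 (SE 0.22). TRP2, anthranilate synthase, is no member only because its wild-type arsenite change was -0.60. Its t-BOOH change was 1.90 in the wild type and 1.18 in the deletion strain (SE 0.21, limma adjusted p = 7.37e-05).

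In arginine synthesis 5 of 8 measured genes rose in the deletion strain (29.9% of all genes). ARG3, ornithine carbamoyltransferase, had wild-type levels of 1.43, 1.47, 1.34 and 1.19 untreated and 3.79, 3.17, 3.34 and 3.17 under t-BOOH. The deletion strain had 1.17, 1.32, 1.14 and 1.01 untreated and 2.66, 2.02, 2.37 and 2.26 under t-BOOH. The treated arrays of the 2 strains did not overlap with each other or with untreated cells. The deletion strain rose by 1.17 (SE 0.14, limma adjusted p = 8.00e-07). ARG7 (ornithine acetyltransferase) rose by 1.14 (SE 0.20) and ARG8 (acetylornithine aminotransferase) by 1.04 (SE 0.14) in that strain, each from wild-type changes of 2.02 and 1.77. ARG2 rose by 0.68, a call lost with the 75th percentile at 0 (0.40, limma adjusted p = 0.0693). ARG1 and CPA1, which are no members, did not pass, at 0.37 (SE 0.24, limma adjusted p = 0.206) and 0.42 (SE 0.20, limma adjusted p = 0.0756).

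Histidine synthesis contributed only HIS5, the histidinol phosphate aminotransferase. It rose by 1.81 in the deletion strain (SE 0.21, limma adjusted p = 2.89e-07), with levels of 0.98, 0.99, 1.02 and 2.10 untreated and 3.24, 2.84, 3.28 and 2.98 under t-BOOH. Untreated replicate 4 was the highest untreated array here too, and still below every treated one. In that strain 5 of 7 histidine genes rose and 1 fell (29.9% and 20.9% of all genes). The gene that fell was HIS6, by 0.87 (SE 0.26, limma adjusted p = 0.00831). That call was lost with normexp and loess (-0.42, limma adjusted p = 0.271) or quantile normalization (-0.54, limma adjusted p = 0.111). Of 7 measured regulators of general amino acid control, looked at after the values were seen, 1 was a member, PCL5. Under t-BOOH 1 of the 7 rose in the deletion strain and 0 fell (29.9% and 20.9% of all genes). The median change of the 7 was 0.08 in the wild type and 0.11 in the deletion strain. PCL5 is a cyclin that directs the kinase Pho85 to mark Gcn4 for destruction, and its change was 2.01 in the wild type and 1.08 in the deletion strain (SE 0.20, limma adjusted p = 1.07e-04). That call was lost with normexp and loess (0.43, limma adjusted p = 0.0949) or quantile normalization (0.46, limma adjusted p = 0.0502), and the estimate was 0.62 without the 3 arrays that stood apart. The mRNA of GCN4 itself differed by 0.60 in the wild type and 0.15 in the deletion strain (SE 0.23, limma adjusted p = 0.621), and GCN2 by 0.38 and 0.34 (SE 0.19, limma adjusted p = 0.136). Gcn4 is controlled mainly by translation in S. cerevisiae, which mRNA levels do not measure. Whether Gcn4 had any part in these changes was not tested.

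**Figure D4:**
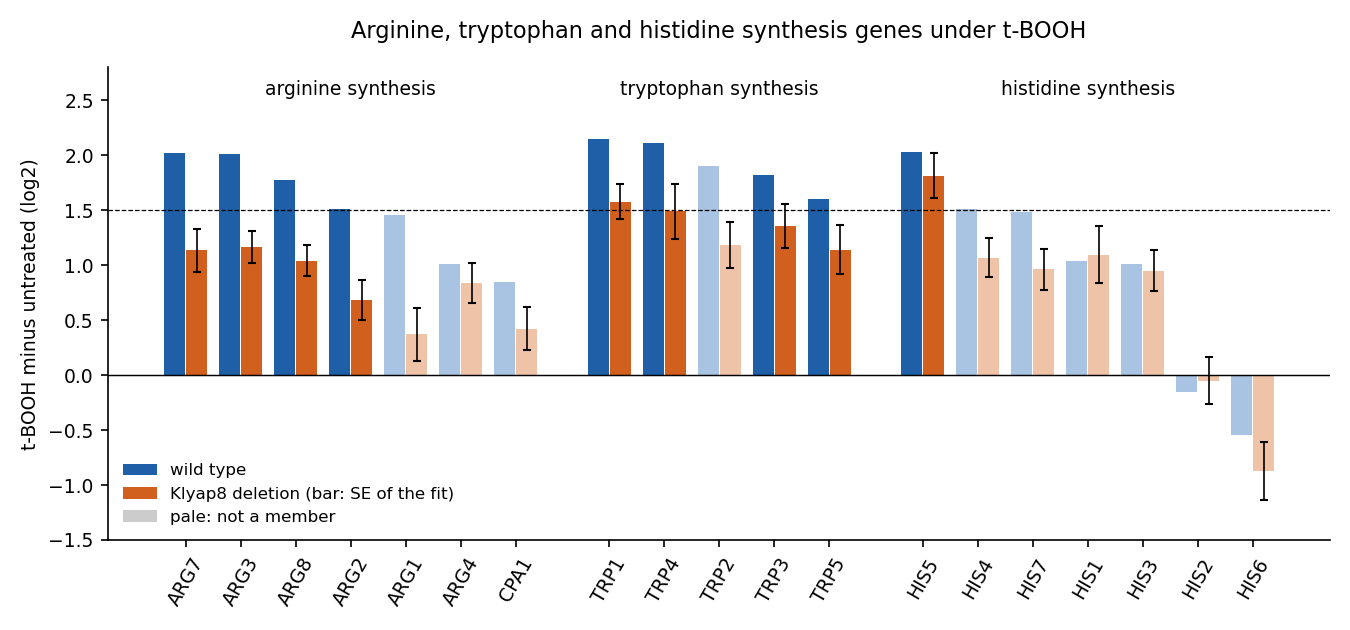
Change under t-BOOH (log2 difference from untreated) of arginine, tryptophan and histidine synthesis genes in the wild type (blue) and the Klyap8 deletion strain (orange, with the SE of the fit), members in full colour. Deletion-strain bars are shorter than wild-type bars for all 5 tryptophan and all 7 arginine genes drawn.

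Peroxide defence supplied 3 members of its 28 measured genes. Under t-BOOH 20 of the 28 rose and 0 fell in the deletion strain (29.9% and 20.9% of all genes). Under arsenite 9 rose and 1 fell (5.66% and 3.71% of all genes). CTT1, the cytosolic catalase, had wild-type levels of 1.57, 0.98, 2.33 and 1.70 untreated, 1.63, 1.48, 1.62 and 1.79 with arsenite and 4.22, 3.72, 3.23 and 3.35 under t-BOOH. Its deletion-strain levels were 1.99, 1.44, 1.26 and 1.73 untreated, 1.91, 1.55, 0.14 and 1.91 with arsenite and 3.63, 3.26, 3.74 and 2.88 under t-BOOH. Both strains' treated arrays overlapped each other and stood clear of the rest, and arsenite replicate 3 of the deletion strain was the lowest array of all. CTT1 rose by 1.77 in the deletion strain (SE 0.40, limma adjusted p = 9.50e-04).

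The other redox members were GRX1, a dithiol glutaredoxin, and GSH1, the first enzyme of glutathione synthesis. GRX1 levels were 2.33, 2.16, 2.34 and 2.61 untreated and 4.81, 4.37, 3.65 and 3.49 under t-BOOH in the wild type. They were 2.32, 2.27, 1.77 and 2.502 and 3.61, 4.22, 3.41 and 3.45 in the deletion strain, which rose by 1.46 (SE 0.27, limma adjusted p = 1.21e-04). Treated arrays stood above untreated ones in both strains, and those of the 2 strains overlapped. GSH1 levels under t-BOOH were 5.14, 4.63, 3.46 and 4.31 in the wild type, above untreated values of 2.45 to 3.19. Deletion-strain values were 4.25, 3.79, 4.003 and 3.60, above 2.47 to 3.08. It rose by 1.24 in that strain (SE 0.28, limma adjusted p = 8.90e-04), a call lost with normexp and loess normalization (0.59, limma adjusted p = 0.0684). GSH2, which completes glutathione and is no member, had a wild-type arsenite change of 0.86 and rose under t-BOOH by 1.95 in the deletion strain (SE 0.20, limma adjusted p = 6.93e-08).

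In lipid synthesis 3 of 37 measured genes were members, and ERG2 and CHO1 rose in the deletion strain while INO1 did not pass. INO1 makes inositol phosphate, the precursor of phosphatidylinositol. Its wild-type levels were -2.84, -2.94, -3.19 and -2.73 untreated, -3.07, -3.35, -3.37 and -3.72 with arsenite and -1.30, -1.56, -1.21 and -0.63 under t-BOOH. The deletion strain gave -4.47, -4.49, -4.37 and -4.67 untreated, -4.79, -4.94, -5.37 and -4.73 with arsenite and -3.96, -4.66, -3.99 and -3.64 under t-BOOH. The deletion strain was lower than the wild type on all 12 arrays, its treated and untreated values overlapped, and its change of 0.43 did not pass (SE 0.19, limma adjusted p = 0.0647). ERG2, the sterol C-8 isomerase, had deletion-strain levels of 0.42, 0.49, 0.36 and 2.79 untreated, 0.30, 0.53, 0.73 and 0.27 with arsenite and 3.69, 3.87, 3.55 and 3.75 under t-BOOH. Untreated replicate 4 lay far above the other untreated arrays, and the t-BOOH arrays were higher still. ERG2 rose by 2.70 in that strain (SE 0.41, limma adjusted p = 1.20e-05). Without untreated replicate 4 the estimate was 3.29, and the wild-type arsenite change was 0.62, outside the rule. CHO1, phosphatidylserine synthase, had treated levels of 3.54, 3.998, 4.02 and 3.92 in the deletion strain over untreated ones of 2.76 to 2.92. Its rise of 1.02 (SE 0.25, limma adjusted p = 0.00203) did not pass after normexp and loess (0.43, adjusted p = 0.180) or quantile normalization (0.43, adjusted p = 0.116). Over the list 11 of the 37 genes rose and 7 fell in the deletion strain, close to the shares of all genes (29.9% and 20.9%).

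Genes known from meiosis and spore formation in S. cerevisiae were the next group, assembled after the values were seen. The 7 members of 46 measured genes were SPR3, GMC2, SPS18, REC8, SMK1, SAE3 and SPR6. SPR3, a septin of the forming spore, had wild-type levels of -6.17, -7.19, -5.66 and -7.38 untreated and -5.27, -3.75, -3.33 and -3.24 under t-BOOH. In the deletion strain they were -5.87, -6.74, -6.07 and -6.37 untreated and -4.48, -3.99, -3.67 and -3.81 under t-BOOH. Treated and untreated arrays did not overlap in either strain, although all were low levels, and the deletion strain rose by 2.28 (SE 0.40, limma adjusted p = 6.16e-05). The kinase gene SMK1 rose by 1.41 (SE 0.19), the meiotic cohesin gene REC8 by 0.98 (SE 0.23) and SPS18 by 1.74 (SE 0.18) in that strain. SAE3 was not well above background on any untreated array of either strain, nor on any array of the deletion strain, so no fold is given there. The fit called SAE3 higher all the same (limma adjusted p = 0.0119). It is counted among the 122 members and the genes of this group that rose, and among the 107 members called at least 2-fold. The call was lost with normexp and loess (limma adjusted p = 0.261) or quantile normalization (limma adjusted p = 0.251). In the wild type, where 3 of 4 t-BOOH arrays measured it, it was at least 1.27-fold higher. Over the whole group 13 of the 46 genes rose and 11 fell in the deletion strain. These shares were close to those of all genes (29.9% and 20.9%). The regulator IME1, which starts meiosis, fell by 2.48 (SE 0.497, limma adjusted p = 2.83e-04), and the meiotic axis gene HOP1 fell by 2.42 (SE 0.36, limma adjusted p = 9.94e-06).

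Transport, iron and turnover genes made up most of the remaining listed members. TPO1, a polyamine exporter, rose by 1.67 in the deletion strain (SE 0.31, limma adjusted p = 1.20e-04). Its deletion-strain levels under t-BOOH, 5.62, 4.55, 5.07 and 4.05, spread widely and overlapped those under arsenite (3.44 to 4.25). The mitochondrial iron transporter gene MMT2 rose by 1.28 (SE 0.36, limma adjusted p = 0.00468) and the ferric reductase homologue FRE8 by 1.25 (SE 0.16, limma adjusted p = 1.59e-06). FRE8 arrays did not overlap between t-BOOH and untreated in either strain, and MMT2 arrays of the deletion strain did. TES1, a peroxisomal acyl-CoA thioesterase, had levels of 2.46, 1.79, 1.63 and 2.12 under t-BOOH in the wild type and 1.11, 0.77, 1.28 and 1.06 in the deletion strain, without overlap. It rose in the deletion strain by 1.82 (SE 0.19, limma adjusted p = 1.06e-07). For autophagy, ATG4, the protease that processes Atg8, rose by 1.23 (SE 0.19). ATG14, a subunit of the autophagy phosphatidylinositol kinase, rose by 0.73 (SE 0.21, limma adjusted p = 0.00659), a call lost with the 75th percentile at 0 (0.44, limma adjusted p = 0.0893).

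Of the 129 members 104 were in none of the 17 lists, and some with known roles are named here after their values were seen. PMC1, the vacuolar calcium pump, had a wild-type change of 2.41 and rose by 1.29 in the deletion strain (SE 0.30, limma adjusted p = 0.00124), a call lost with normexp and loess normalization (0.71, limma adjusted p = 0.112). NUC1, the mitochondrial nuclease, and MCA1, the metacaspase, had wild-type changes of 2.33 and 1.85. Both rose in the deletion strain, by 1.40 (SE 0.22) and 1.38 (SE 0.18). OAZ1, the antizyme that restrains polyamine synthesis, rose by 2.39 there (SE 0.27) beside 2.24 in the wild type. KRE1 and KRE9, which act in cell wall glucan assembly, rose by 1.38 (SE 0.15) and 1.43 (SE 0.34). Among the 7 members that did not pass in the deletion strain were, besides INO1, FKS3, a glucan synthase homologue, at 0.49 (SE 0.24, limma adjusted p = 0.0993), the membrane protein gene PUN1 at 0.4998 (SE 0.23, limma adjusted p = 0.0794) and ESBP6 at 0.56 (SE 0.28, limma adjusted p = 0.100). A further 2 were dim genes without a symbol, KLLA0D07370g (0.76, SE 0.45) and KLLA0D06325g (1.12, SE 0.50).

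Lists without any member numbered 9. Heat shock proteins (32 measured) had median wild-type changes of 0.34 under t-BOOH and 0.90 under arsenite. Proteasome genes (56 measured) had 0.88 and 0.62, so both lists had higher arsenite medians than all genes (-0.07). Cytosolic ribosomal proteins (51 measured) had 1.03 under t-BOOH and -0.87 under arsenite. In the deletion strain 1 of them rose under t-BOOH (29.9% of all genes). The other lists without a member were flavin and aldehyde oxidoreductases, NADPH and pentose phosphate, stress carbohydrates, glycolysis, mitochondrial respiration, and DNA damage response.

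Arsenite changed few members in the deletion strain too. Only ARG3 and ARG8 rose (5.66% of all genes rose), and 0 of 129 fell (3.71% of all genes) by limma with adjustment over all genes. At an unadjusted p under 0.05 the number was 6 (23.7% of all genes), of which 2 were higher. Changes ran from -0.63 to 0.61 with a median of -0.02 and quartiles of -0.18 and 0.16. Over all genes tested the median was -0.06 and the quartiles -0.30 and 0.22. The rule chose the members for a small arsenite change in the wild type, whose channel shares these arrays. ARG3 had deletion-strain levels of 1.17, 1.32, 1.14 and 1.01 untreated and 1.58, 1.67, 1.85 and 1.58 under arsenite, without overlap (change 0.51, SE 0.14, limma adjusted p = 0.0261). ARG8 had 0.96, 0.88, 0.86 and 0.51 and 1.25, 1.32, 1.43 and 1.17, also without overlap (change 0.49, SE 0.14, limma adjusted p = 0.0334). Leaving out any 1 of the 4 arsenite arrays, or untreated replicate 3 or 4, ended the ARG3 call, with adjusted p between 0.0506 and 0.116, and so did leaving out untreated replicate 1 (0.0615). For ARG8 it was any arsenite array or untreated replicate 2, 3 or 4 (0.0519 to 0.128). Without the 3 arrays that stood apart 15 members rose and 4 fell under arsenite, the same comparison calling 742 higher and 636 lower among all genes in place of 287 and 188.

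Set directly against arsenite, t-BOOH gave higher levels for 127 of the 129 members in the deletion strain (31.6% of all genes), at least 2-fold for 111 (12.6% of all genes). The median difference was 1.45, against 0.18 over all genes, and on 121 members every t-BOOH array lay above every arsenite array (32.1% of all genes). One that did not pass was ESBP6 (0.24, SE 0.28, limma adjusted p = 0.481). This comparison shares its t-BOOH samples with the comparison against untreated cells. Without the 3 arrays that stood apart the count was 122. Over all genes the split was 1603 higher and 1039 lower with the array median at 0, and 958 and 1487 with the 75th percentile at 0, where 114 members were higher.

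Within arrays the members' levels lay lower in the deletion strain than in the wild type under t-BOOH, while their median ratios in the other conditions lay near 0. Their median log2 ratio of deletion over wild type on the 4 t-BOOH arrays was -0.75, -0.65, -0.15 and -0.66. It was -0.07, -0.01, -0.09 and 0.12 on the untreated arrays and -0.10, -0.05, -0.02 and -0.03 on the arsenite arrays. The t-BOOH arrays lay below all of the others, with replicate 3 nearest to them, and the medians of all genes lay between -0.01 and 0.03 on the 12 arrays. On 76 members the t-BOOH ratio was below 0 on all 4 arrays (14.9% of all genes), and on 3 it was above 0 on all 4 (16.7%). Over members the median of the mean t-BOOH ratio was -0.50, and -0.67 without t-BOOH replicate 3. The wild-type channel that chose the members is part of these ratios. When the members were chosen without the t-BOOH array on which the ratio was read, an alternative added after seeing the data, the medians on replicates 1 to 4 were -0.73, -0.64, -0.08 and -0.59 (mean -0.51 ± 0.29, SD, n = 4). These genes were still chosen for high wild-type levels on the other t-BOOH arrays, so the ratios remain a description and not independent support.

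Among the most negative mean t-BOOH ratios were those of INO1 (-2.89 ± 0.20), KLLA0F11440g (-1.69 ± 0.61), KLLA0B00517g (-1.53 ± 1.28) and FKS3 (-1.45 ± 0.36), all SD with n = 4. For FKS3 the mean ratio was -0.90 with normexp and loess normalization and -1.05 in the authors' deposited table, where it no longer ranked among the 5 lowest. INO1 was lower in the deletion strain without stress as well (untreated ratio -1.58 ± 0.31). So was KLLA0F11440g, on all 4 untreated arrays (-0.73 ± 0.33) and on all 4 arsenite arrays (-0.23 ± 0.11). For KLLA0B00517g the 4 t-BOOH ratios were -2.87, -2.04, 0.15 and -1.38, so replicate 3 had the opposite sign. The ratio was above 0 for 8 members, the highest being MLC2, the light chain of the cytokinetic myosin. MLC2 had t-BOOH ratios of 0.66, 0.48, 0.16 and 0.42, and rose by 2.38 in the deletion strain (SE 0.18, limma adjusted p = 8.19e-10) beside 1.81 in the wild type. CMR2 (0.24 ± 0.18), KLLA0F16709g (0.23 ± 0.66), ERG2 (0.23 ± 0.46) and CAK1, the kinase that activates cyclin-dependent kinase (0.08 ± 0.48), followed. In the authors' deposited table the mean t-BOOH log2 ratio was -2.48 for INO1 and 0.37 for MLC2. By comparison, the 41 genes raised by both stresses had a median t-BOOH ratio of -0.03 and arsenite ratio of -0.65. The 129 members had -0.50 and -0.05, and the 16 genes raised by arsenite alone had 0.47 and -0.56. These differences between the sets were not tested, because the wild-type channel chose all of them. A low t-BOOH ratio was not particular to the members, since cytosolic ribosomal proteins, a list without a member, had a median of -0.46.

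**Figure D5:**
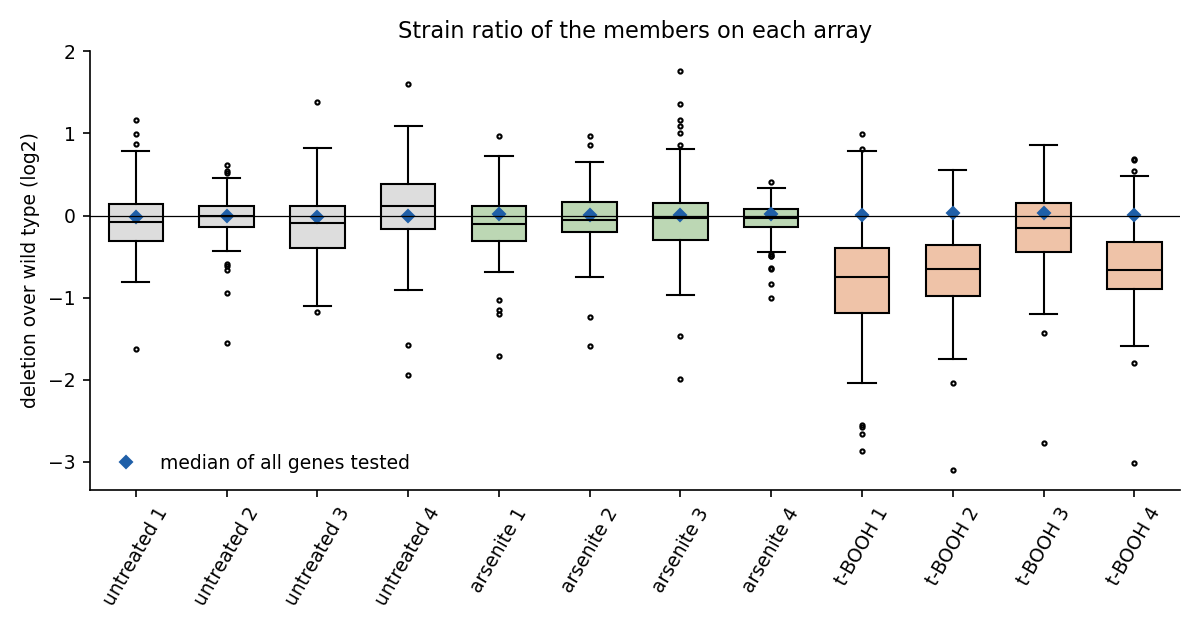
Log2 ratio of the Klyap8 deletion strain over the wild type for the 129 members on each of the 12 arrays (box: quartiles and median, whiskers to 1.5 interquartile ranges, points beyond), with the median of all genes tested as a diamond. The members' medians are -0.75, -0.65 and -0.66 on t-BOOH replicates 1, 2 and 4, and -0.15 on replicate 3, while untreated and arsenite medians lie between -0.10 and 0.12.

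Members were found on all 6 chromosomes, at 2.02% (C) to 2.78% (D) of the genes of 5 of them and 4.03% of those of chromosome B (25 of 621). Adjacent genes formed 8 member pairs with 16 members. These were ARO5 with KLLA0B00517g, KLLA0D02156g with ILT1, KLLA0B10219g with ATG41, KHA1 with KLLA0D06281g, KLLA0D09108g with ATG14, KRE1 with ARG8, KLLA0A09757g with KLLA0A09779g, and KLLA0D12606g with KLLA0D12628g. ARO5 and KLLA0B00517g are the genes at places 15 and 16 from an end of chromosome B. Between places 4 and 30 from an end lay 12 members (9.3%), and 6.4% of all genes. Among them, KLLA0B14531g and KLLA0C00330g, on different chromosomes, had nearly the same values on every array. Their t-BOOH ratios were -0.72, -0.64, -0.18 and -0.45, and -0.76, -0.64, -0.20 and -0.48. Whether their probes measure separate RNAs was not tested. Median coding length was 1287 bases for 128 members and 1227 for all genes with a length. These positions are a description, and were not tested.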

How the data were processed

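RNA of 2 strains under 3 conditions was hybridised to 12 Agilent arrays (24 channels), with 4 arrays per condition. Per the file headers, Feature Extraction 10.7.3.1 read the scans, and the deposited processed signals are intensity values that the scanner software had background-subtracted and dye-normalized. Median spot and background intensity values, deposited without normalization, served the normexp alternative. A deposited table gives log2 values that the authors made for each array. They correlated at 0.991 to 0.999 with log2 ratios of deletion over wild type computed from the same scans after normexp and loess, with slopes of 1.01 to 1.03, and at 0.954 to 0.989 with the processed-signal ratios used in the report. In array order its medians were, untreated, -0.01, -0.00, -0.00 and -0.01. With arsenite they were -0.02, 0.00, 0.00 and 0.00, and with t-BOOH 0.01, -0.01, 0.01 and -0.03. The authors' normalization of that table and the genome build of the array design are not given in the sources used here.

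From the processed signals log2 values were taken per channel, the spots of a gene averaged (2 spots for 5076 of the 5081 genes and 60 for the other 5) and the array median subtracted. Tests used the 5069 genes that on 4 or more arrays were well above background in 1 channel or the other. The deletion strain was tested with limma 3.58.1 in R 4.3.3, by the separate-channel fit of 6 group means and dye (intraspot correlation 0.589, 17 residual and 4.50 prior degrees of freedom). A gene was called at a p under 0.05 after Benjamini-Hochberg adjustment over all 5069 genes, and "rose" and "fell" are used of called genes. SE is from the fit, SD over 4 arrays, with precision limited by that number. The fit was tested on simulated data. Names came from a RefSeq table (assembly ASM251v1) that matched 5069 genes, of which 3955 had a symbol.

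The members and the gene lists were chosen with earlier results of these data known, and 5 lists were added after values were seen. Named genes are the 12 highest wild-type t-BOOH changes, the 5 lowest and 5 highest t-BOOH ratios, up to 4 members per list, the 3 genes on each side of the limits, up to 5 members not called under t-BOOH, members called under arsenite, and ARR1. Alternatives were the normalization, centring, filters, dye term, replicate block, single arrays left out and other thresholds. Same-numbered arrays of different conditions had residual correlations of -0.41 to 0.56. Differently numbered arrays were not compared, so whether the numbers pair the samples stays undecided. No sequence is printed, and a gene that the rule names is not reported here.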

Additional observations from a re-analysis of the deposited data

Results flagged for a closer look

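Of 129 groups of 4 arrays tested for a single array far from the rest by Dixon's test at the 95% level, 12 stood out, and chance alone gives about 1 in 20 groups. Untreated replicate 4 accounted for 7 of them. Its level was 0.0202 for SWE1 in the wild type, -6.45 for KLLA0C11121g and -0.83 for ILT1 in the deletion strain. FKS3 was at -3.95 in the wild type and -4.17 in the deletion strain on that array, and ERG2 at 3.02 and 2.79, each far from the other untreated arrays.

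Replicate 1 under t-BOOH stood apart in the deletion strain for KLLA0F11440g (-0.77), KLLA0F08745g (-4.49) and MLC2 (3.40). Arsenite replicate 1 stood apart for FKS3 in the wild type (-4.92). The median strain ratio of the members on t-BOOH replicate 3, -0.15, was far from those of the other t-BOOH arrays.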

How the results depend on the processing

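No t-BOOH call of a member, or of IME1, HOP1, HIS6, GSH2 or TRP2, changed direction under the alternatives run, but over all genes the t-BOOH split turned from 1514 higher and 1060 lower to 928 and 1561 with the 75th percentile at 0. In the deletion strain t-BOOH raised 115 members with normexp, loess and Aquantile normalization, 118 to 125 with 1 array left out, and 119 with quantile normalization. Against arsenite the count was 121 to 127 with 1 array left out. Under arsenite the count of 2 became 1 with normexp normalization, 1 that fell with the deletion-strain channels alone, 0 with a 2-fold limit, 0 to 4 with 1 array left out, and 19 (15 higher and 4 lower) without the 3 arrays that stood apart. The number of members was 78 with the 75th percentile at 0, 364 with a t-BOOH limit of 1, 54 with a limit of 2, 84 with arsenite limits of -0.3 and 0.3, and 116 to 185 with 1 array left out. Normexp gave 91 genes, 74 of them members, and quantile normalization 114, with 80. Over all genes the arsenite comparison called 287 higher and 188 lower, but 742 and 636 without the 3 arrays, 480 and 393 without t-BOOH replicate 1, 413 and 307 within slide 1, and 163 and 65 without arsenite replicate 3. The cause was not tested. With the replicate number as a block, although pairing by number stays undecided, 123 members rose under t-BOOH, 2 under arsenite and 127 against arsenite. Leaving out outlier spots, added after seeing the data, lost no t-BOOH call. Requiring both channels well above background on all arrays left 4 called members untested.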
